A study of Mus musculus with 2 samples.

Results

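Nuclei with a crypt enterocyte pattern around Htr4 and Cftr were picked out of single-nucleus RNA sequencing of mouse colon. A nucleus was a member when it held UMIs (unique molecular identifiers, which count captured RNA molecules) of at least 4 of the 9 genes Htr4, Cftr, Gm43824, Far2, Myo3a, Gm50323, Shank2, Pde8b and Nxpe2. These genes also had to make up at least 0.3% of its UMIs, and fewer than 3 of the 5 exclusion genes Gsdmc2, Gsdmc3, Cyp2c68, Hao2 and Aqp4 could be detected. This rule took 899 of 9586 nuclei, 273 of 4884 in the WT library and 626 of 4702 in the HIF-1α KO library.

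The tissue was frozen colon taken on day 28 of chronic colitis, after 4 cycles of 3 days of 2% dextran sulfate sodium (DSS) in the drinking water and 4 days of recovery. Both genotypes received DSS, and the animals were 8 to 12 weeks old at treatment. The HIF-1α KO mice were Ncr1cre+ Hif-1α fl+/fl+, so that the deletion is driven by the Ncr1 promoter of NKp46+ innate lymphoid and NK cells and not in the epithelium, and the controls were wild type (WT). Tissue of 3 animals was pooled into 1 library per genotype, and with a single library on each side no comparison of genotypes could be replicated. No test was made, and every interval given here is a 95% interval for counting error only.

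Htr4 encodes a serotonin receptor that couples to Gs and raises cAMP, and Cftr the chloride channel that cAMP-dependent protein kinase opens at the apical membrane of crypt cells. In the crypt, chloride enters through the basolateral cotransporter encoded by Slc12a2 and leaves through CFTR, while basolateral potassium channels such as KCNQ1 with its subunit KCNE3 keep up the driving force. Toward the surface the epithelium changes to the absorption of sodium chloride through the exchangers encoded by Slc9a3 and Slc26a3.

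The members were chosen by the 9 genes, so the following levels describe the choice and are no finding. Levels are counts per 1000000 UMIs (CPM) of the summed nuclei. Htr4 stood at 1445 CPM (1368 to 1527) in WT and 1728 (1680.0 to 1778) in HIF-1α KO members, against 424 and 471 CPM in all other nuclei. Cftr stood at 1835 CPM (1747 to 1926) and 1233 (1193 to 1275), against 549.7 and 363 CPM. It was thus the higher of this pair in the WT library and the lower in the HIF-1α KO library, within the members and outside them; these are levels of molecules and are not corrected for gene length.

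The other markers were less abundant. Shank2, which encodes a scaffold of the apical membrane, had 389 and 489 CPM in WT and HIF-1α KO members, and Myo3a, a class III myosin, 389 and 378 CPM. The cAMP phosphodiesterase gene Pde8b had 298 and 545 CPM. Nxpe2, of the neurexophilin and PC-esterase family, had 174 and 205 CPM. The fatty acyl-CoA reductase gene Far2 had 24.7 and 78.6 CPM, the long noncoding RNA Gm43824 65.1 and 134 CPM, and the antisense RNA Gm50323 43.8 and 60.3 CPM. All 9 were higher in members than in other nuclei of both libraries, as the rule requires of them together.

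On the genome build of the files, GRCm38, Cftr lies on the plus strand of chromosome 6 from 18170687 to 18322768, Shank2 on chromosome 7 from 144001928 to 144424494 and Pde8b on the minus strand of chromosome 13 from 95024454 to 95250336. Gm43824 is an intergenic RNA on chromosome 3 from 128610987 to 128887161. Gm50323, on chromosome 19 from 44225796 to 44246570, runs antisense to Scd3. Cftr, Far2, Shank2 and Pde8b also overlap annotated antisense RNAs, Far2 overlaps Ergic2 and Nxpe2 overlaps Nxpe4. Whether the counting used the strand is not stated in the sources used here, so reads of such pairs are not told apart with certainty.

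Most members held both lead genes. Htr4 and Cftr were detected together in 264 of the WT members (96.7%) and in 570 of the HIF-1α KO members (91.1%). Htr4 alone was found in 4 and 44 members, Cftr alone in 4 and 12, and neither in 1 and 0. The summed markers took 0.301% to 1.09% of a member's UMIs in WT, with a median of 0.429%, and 0.301% to 1.37% in HIF-1α KO, with a median of 0.454%.

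Many members lay near the thresholds. In WT 155 members held the least number of 4 markers, 82 held 5, 28 held 6, 6 held 7 and 2 held 8. The HIF-1α KO members were spread further, with 190, 175, 164, 79 and 14 nuclei and 4 nuclei with all 9. Their depth differed as well, with a median of 2747 UMIs per member in WT and 3820 in HIF-1α KO. A further 61 and 102 members had a marker share of 0.3% to 0.35%. Just outside were 184 WT and 88 HIF-1α KO nuclei with 3 markers and the share met, and 48 and 117 nuclei with 4 markers and a share of 0.25% to 0.3%. The exclusion genes alone kept out 84 and 296 nuclei, and 71 and 216 members held 2 of these genes.

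By this rule the members were 5.59% (4.96 to 6.27) of the WT nuclei and 13.3% (12.4 to 14.3) of the HIF-1α KO nuclei, a ratio of 2.38, or 1.25 (1.04 to 1.46) on the log2 scale. This ratio is the outcome of the rule and was not read as the abundance of a cell type, because marker levels themselves differed between the libraries: in the other nuclei of the HIF-1α KO library Far2, Pde8b, Shank2, Myo3a and Gm43824 had more CPM than in those of WT, and Cftr had fewer. With all nuclei thinned to 1000 UMIs, the shares were 1.60% and 5.80%. Among nuclei with 4000 to 8000 UMIs they were 9.57% and 12.8%, and with the marker share alone and no least number of markers 11.7% and 15.8%. Each of the settings tried gave the larger share in HIF-1α KO, at log2 ratios of 0.42 to 1.94. Leaving out 1 marker at a time changed the size of the groups most for Htr4, with 73 WT and 245 HIF-1α KO nuclei left, and for Cftr, with 59 and 325.

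**Figure D1:**
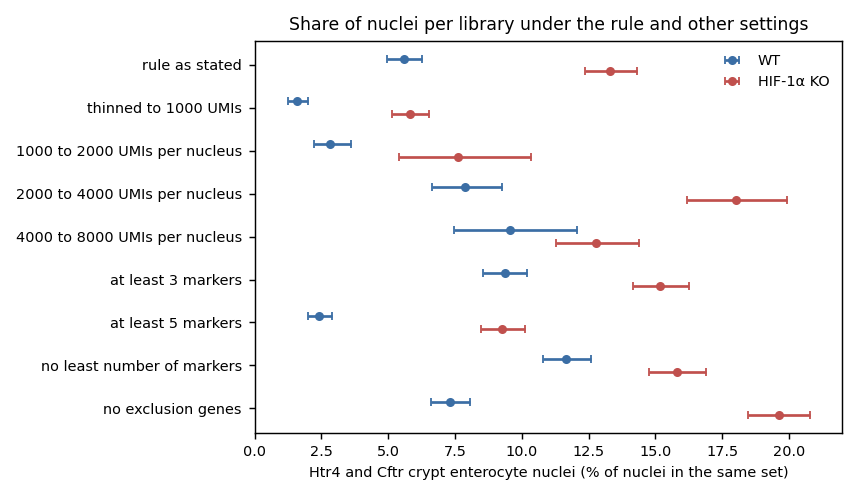
Share of nuclei that met the rule, in percent of the nuclei of the same set (horizontal axis), under the rule as stated and 8 other settings (vertical axis). Points are the WT (blue) and HIF-1α KO (red) library and bars exact 95% binomial intervals; the HIF-1α KO share lay higher in every row, with 13.3% against 5.59% under the rule and 12.8% against 9.57% among nuclei with 4000 to 8000 UMIs.

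The markers kept together when each was left out of its own rule. In nuclei chosen with Htr4 left out, the share with a UMI of Htr4 was 93.2% (84.7 to 97.7) for WT and 95.1% (91.6 to 97.4) for HIF-1α KO, against 54.8% and 67.2% of the others. Cftr, treated in the same way, was detected in 91.5% (81.3 to 97.2) and 86.5% (82.3 to 90.0), against 59.6% and 60.5%. Shank2 reached 56.7% and 75.2% against 18.3% and 36.4%. These shares are at full depth. At 1000 UMIs per nucleus Htr4 was detected in 52.1% and 76.3% of the chosen nuclei against 34.4% and 35.5%. Cftr had 78.0% and 54.0% against 38.6% and 28.6%, and Shank2 21.3% and 32.4% against 8.69% and 13.2%. The share was higher in the chosen nuclei for 18 of 18 combinations of marker and library, and for 17 of 18 at 1000 UMIs per nucleus, where Far2 in WT had 0.749% against 0.801%. The markers had been drawn from these same nuclei, so this is a description.

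Of the classes compared, nuclei marked by Gsdmc2, Gsdmc3, Cyp2c68, Hao2 and Aqp4 were closest to the members in the lead genes. There were 255 such WT and 587 HIF-1α KO nuclei outside the membership, with 915 and 1155 CPM of Htr4 and 1227 and 858 CPM of Cftr. Nuclei with crypt base stem markers, 71 and 45, had 562 and 766 CPM of Htr4. In nuclei that met a mesenchymal rule, which should lack both genes, Htr4 had 265 and 185 CPM and Cftr 323 and 153 CPM. Members and Gsdmc nuclei lay above this level, and goblet and surface absorptive nuclei, with 155 to 254 CPM of either gene, near or below it. The members held the exclusion genes at lower levels than the Gsdmc nuclei, with 52.7 and 63.9 CPM of Gsdmc2 against 389 and 335 CPM; Gsdmc2 and Gsdmc3 are close copies whose reads may be split between them.

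**Figure D2:**
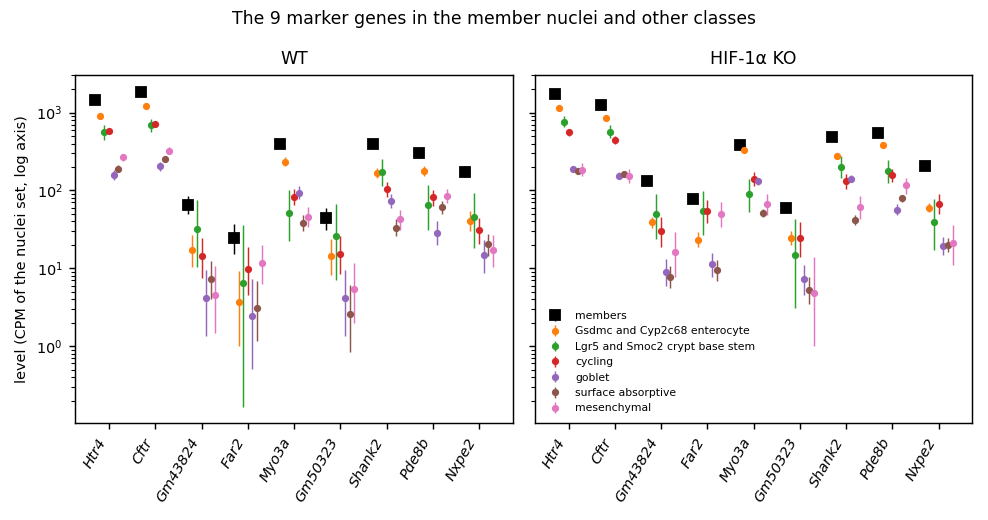
Level of the 9 marker genes in counts per 1000000 UMIs (log axis) in members and 6 other classes of nuclei, for the WT (left) and HIF-1α KO (right) library. Points are summed levels and bars exact 95% Poisson intervals. Members (black squares) are highest by construction, Gsdmc nuclei (orange) come next for Htr4 and Cftr, and mesenchymal nuclei (pink) show 265 and 185 CPM of Htr4.

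The following genes took no part in the rule. Members over all other nuclei were compared within each library, and a gene counted as higher or lower when it was at least 2-fold so in both. Of 8084 genes with at least 50 UMIs in members, 114 were higher (1.41%) and 265 lower (3.28%), and the median over genes of the smaller of both log2 ratios, taken as 0 where the libraries differed in direction, was 0. Since the marker genes came from the same nuclei, these ratios carry no test.

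Genes of the chloride secretion pathway were led by the potassium channel. Kcnq1 had 485 CPM (440.1 to 533) in WT and 649.7 (620.1 to 680.3) in HIF-1α KO members, against 177 and 148 CPM in other nuclei, which is 2.73 and 4.38 times as much. Its subunit gene Kcne3 had 87.5 and 95.1 CPM, against 39.6 and 36.4. These were the 2 higher genes of 9 tested in this list. The calcium-activated potassium channel gene Kcnn4 had 65.1 and 104 CPM against 32.9 and 29.8, just under 2-fold in WT. Slc12a2, the chloride entry step, had 596 (546 to 649) and 609 CPM (580.2 to 638), against 408 and 355. Stem nuclei outside the membership had 634 and 934 CPM of it, and goblet nuclei had 965 and 742 CPM. Ano1, which encodes a calcium-activated chloride channel, was the lower gene of the list, with 111 and 238 CPM against 274 and 614. The mesenchymal nuclei had 76.0 and 40.2 CPM of Kcnq1, well below the members. Stem nuclei outside the membership had 672 and 737 CPM of Kcnq1, more than the members. Cycling nuclei had 333 and 308 CPM and Gsdmc and Cyp2c68 nuclei 191 and 233 CPM.

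The pathway between the receptor and the channel stood out less. None of 19 genes of Gs and cAMP signalling was higher and 2 were lower, Adcy2 and Pde10a. Adcy6, an adenylyl cyclase gene, came closest to 2-fold, with 407 and 397 CPM in members against 219.9 and 202 in other nuclei. Mesenchymal nuclei had 88.7 and 53.0 CPM of it. Gsdmc and Cyp2c68 nuclei had 399 and 332 CPM, stem nuclei 336 and 321 and cycling nuclei 307 and 299. These 3 classes lay between members and all other nuclei, so a raised level was not particular to the members. At 1000 UMIs per nucleus Adcy6 was detected in 26.4% and 31.4% of members. The shares were 30.2% and 26.9% in Gsdmc and Cyp2c68, 36.6% and 26.7% in stem and 25.4% and 24.1% in cycling nuclei. Vipr1, the receptor of vasoactive intestinal peptide, had 183 CPM in both libraries against 129.6 and 140.1. Gucy2c, the guanylate cyclase receptor that also drives chloride secretion, had 248 and 286 CPM against 170.0 and 196, while Prkg1, a cGMP-dependent kinase of muscle, was lower.

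Genes of surface absorption were low. Of 9 genes of sodium chloride absorption 6 were lower and none higher, at a median of -1.47. The sodium-hydrogen exchanger gene Slc9a3 had 28.1 and 22.2 CPM in members against 155 and 159 in other nuclei, and was among the 5 lowest genes in all. In mesenchymal nuclei it had 42.5 and 14.5 CPM, so that the members lay in the range of nuclei that should lack it. Slc9a3 was also low in stem nuclei, at 38.8 and 14.8 CPM, in cycling nuclei, at 27.5 and 15.7, and in goblet nuclei, at 32.0 and 16.2. Gsdmc and Cyp2c68 nuclei had 56.4 and 37.3 CPM and surface absorptive nuclei 592 and 399, so the low level is not particular to the members. The chloride-bicarbonate exchanger gene Slc26a3 had 150.4 and 187 CPM against 416 and 736, with 155 and 169 CPM in mesenchymal nuclei. Scnn1a, Car1, Car4 and Aqp8 were the other lower genes, while Car2 had 238 and 165 CPM against 236 and 165. Of 14 genes of absorptive maturation 9 were lower, among them Ceacam20 with 25.8 and 48.8 CPM against 163 and 308.

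**Figure D3:**
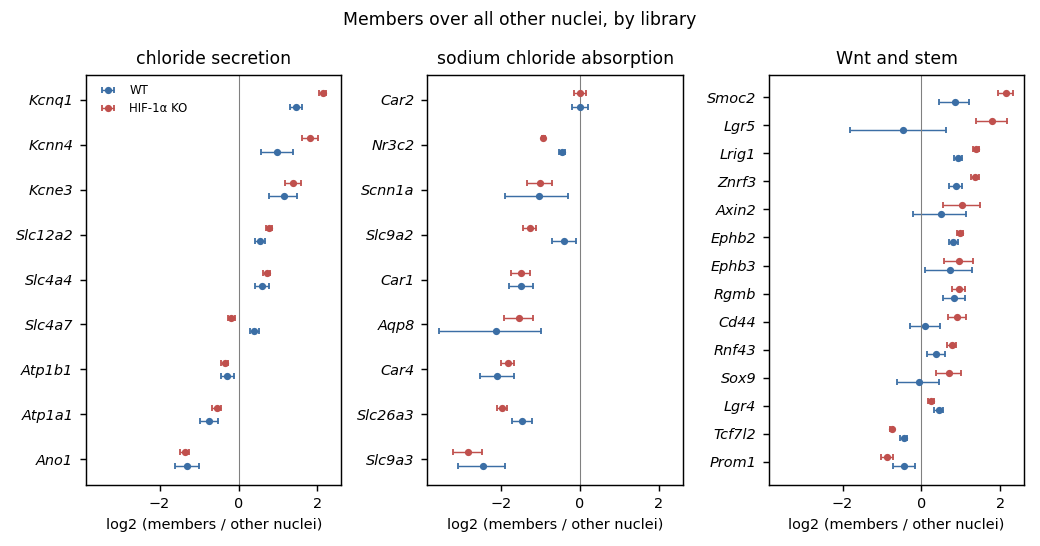
Log2 ratio of members over all other nuclei of the same library for the tested genes of chloride secretion (left), sodium chloride absorption (middle) and Wnt and stem genes (right), in the WT (blue) and HIF-1α KO (red) library; bars are exact 95% intervals for counting error. Kcnq1 and Kcne3 lie above 1 in both libraries, and 6 of 9 absorption genes lie below -1 in both.

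No Wnt and stem gene passed 2-fold in both libraries. Of the 14 tested, at a median of 0.43, 10 had more CPM in members in both libraries. Lrig1, an inhibitor of ERBB receptors in crypt cells, had 1068 and 919 CPM against 561 and 352. Ephb2, a Wnt target, had 793 and 580.1 CPM against 455 and 296, and Znrf3, which removes Wnt receptors, 370.3 and 378 CPM against 203 and 147. Stem nuclei outside the membership had more Lrig1, 1855 and 1636 CPM. Lgr5, the stem cell receptor, was near the level of other nuclei in WT members, at 7.86 CPM (3.16 to 16.2) against 10.8, and above it in HIF-1α KO members, at 28.3 CPM (22.4 to 35.3) against 8.21.

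All 17 cycling genes tested had more CPM in members than in other nuclei of both libraries, and 4 of them, Knl1, Cenpf, Aspm and Hmmr, passed 2-fold in both. Top2a had 221 and 193 CPM against 121 and 62.3. Cycling was carried by part of the members: a rule of 3 or more of 8 cycling markers and at least 0.1% of UMIs was met by 77 WT (28.2%) and 127 HIF-1α KO members (20.3%), against 9.26% and 6.08% of the other nuclei. With nuclei thinned to 1000 UMIs, 9.89% and 7.84% of members held 3 of these markers, against 3.34% and 2.19%. Members that met the rule had 652 and 674 CPM of Slc12a2, and those that did not 564 and 586. Their Cftr levels were also close, with 1788 and 1213 CPM in cycling members and 1861 and 1241 CPM in the rest.

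The 15 genes with the highest ratios included receptors and regulators besides mitotic genes. Agtr1b, an angiotensin II receptor gene, led with 14.6 and 25.8 CPM against 3.23 and 6.10, on 13 and 72 UMIs, but the HIF-1α KO mesenchymal nuclei had 19.3 CPM of it. Esr2, the estrogen receptor beta gene, had 64.0 and 60.6 CPM against 21.0 and 19.7, and Gsdmc and Cyp2c68 nuclei had 55.5 and 47.9 CPM of it. Boc, a coreceptor of Hedgehog ligands, had 235 and 121 CPM against 71.4 and 39.6. The other members of this group were Greb1l, Rtn4rl1, Gsta3, Nfe2l3, Smpx, Etv4, Hunk and Kcnq1, at 2.76 to 4.38 times in the HIF-1α KO library, and the mitotic genes Spag5, Cdc25c, Hmmr and Cenpu. Hunk had 136 and 145 CPM in members but 207 and 168 in stem nuclei outside the membership. In the HIF-1α KO library these stem nuclei had 64.3 CPM of Esr2, 79.1 of Rtn4rl1 and 69.2 of Etv4, against 60.6, 74.6 and 47.0 in members. In WT they had less than members, with 6.46, 32.3 and 97.0 CPM against 64.0, 55.0 and 125. Cycling nuclei outside the membership had more of each of these mitotic genes than members in both libraries. Boc and Greb1l were higher in members than in Gsdmc and Cyp2c68, stem and cycling nuclei of both libraries. With nuclei thinned to 1000 UMIs the smaller log2 ratio of Cdc25c went from 1.54 to 0.10, and Hmmr at 0.97, Nfe2l3 at 0.93 and Cenpu at 0.86 also no longer reached 2-fold. The 5 lowest were Ceacam20, Nrg1, Ctnna2, Slc9a3 and Slco2a1. Against other epithelial nuclei alone Nrg1 went from -2.54 to -0.81 and Ctnna2 from -2.49 to -0.99, so that neither was called, and Ceacam20, Slc9a3 and Slco2a1 stayed at -2.95 to -2.73. Mesenchymal nuclei had 2559 and 1688 CPM of Nrg1, a growth factor gene.

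Among 17 transcription factors of the epithelium and its regions 0 were higher. Nr5a2, a nuclear receptor of crypt cells, had 380.4 and 345 CPM against 191 and 211. Klf4, a factor of differentiated surface and goblet cells, was the lower one, with 66.2 and 108 CPM against 203 and 275. Hes1, a Notch target, had 80.8 and 61.0 CPM against 58.2 and 40.8, and Spdef, a goblet factor, was lower, with 23.6 and 50.6 CPM against 68.2 and 103.

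The main mucin gene was at the level of nuclei that should not make it. Muc2, the gel-forming mucin gene, had 475 and 557 CPM in members, 449.8 and 557 CPM in mesenchymal nuclei and 4687 and 4023 CPM in goblet nuclei. At 1000 UMIs per nucleus it was detected in 39.2% and 43.4% of members, and in 36.5% and 53.7% of mesenchymal nuclei. Of 13 mucus genes 5 were lower than in other nuclei and 0 higher. Ern2, an endoplasmic reticulum stress sensor of mucosal epithelium, had 69.6 and 96.1 CPM in members against 10.9 and 24.1 in mesenchymal nuclei.

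The remaining lists held few calls at 2-fold, but in several most genes lay below other nuclei in both libraries. These were 9 of 10 apical scaffold, 12 of 15 epithelial structure, 10 of 12 hypoxia and 8 of 9 immediate-early genes. In the same lists 1, 3, 0 and 1 genes lay above other nuclei in both. By the call at 2-fold, 1 of 10 apical scaffold genes was lower, Slc9a3r1, whose product anchors NHE3 and CFTR, with 16.8 and 21.5 CPM against 40.7 and 44.9. Of 12 hypoxia genes P4ha1 and Ndrg1 were lower, of 10 inflammation genes Saa1, of 15 genes of epithelial structure Krt20, and of 9 immediate-early genes Fos, Klf6 and Zfp36. Of 11 BMP receivers and targets, 13 integrins and matrix receptors and 4 interferon and MHC class II genes, 0 were called in either direction. Pigr, which carries IgA across the epithelium, had 1026 and 794 CPM against 717 and 780.2. The transporter and enzyme of serotonin removal, Slc6a4 and Maoa, had 7.86 and 16.9 CPM against 6.14 and 12.8, and 199.7 and 252 CPM against 241 and 322.

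Between the libraries, 8098 genes with at least 50 UMIs in members were compared, and 377 were at least 2-fold higher (4.66%) and 127 lower (1.57%) in HIF-1α KO. The median log2 ratio of all genes was 0.09. With ratios centred on this median the counts were 307 and 172, so that the share of higher among called genes went from 74.8% to 64.1%. With no filter on low counts there were 1202 higher and 4449 lower of 18214 genes. There a gene without a UMI in WT members was set to 3 UMIs, so that one with few UMIs in HIF-1α KO counted as lower. The counts without the filter therefore give no direction. In all other nuclei 190 of the same 8098 genes were higher and 186 lower. Those sums held 12368307 UMIs in WT and 20818088 in HIF-1α KO, against 891123 and 2787414 in members. Counting error is therefore larger in members, and the counts of members and other nuclei cannot be compared directly. Where a second ratio is given for a gene, it is that of all other nuclei.

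Of the 12 highest genes 7 carry predicted-gene, clone or antisense names: Gm19461, Gm36975, 2610318M16Rik, Pard3bos1, Gm12216, Gm35188 and D830024N08Rik. Gm19461 had 4.49 CPM (1.22 to 11.5) in WT and 54.9 (46.5 to 64.3) in HIF-1α KO members, a log2 ratio of 3.61 (2.23 to 5.51), and 2.46 in other nuclei. For 2610318M16Rik the log2 ratio was 2.82 (2.10 to 3.65), and 2.55 in other nuclei. Cotl1, an actin-binding protein gene, had 10.1 and 50.2 CPM, a log2 ratio of 2.31 (1.35 to 3.47) against 0.82 in other nuclei. Pstpip2, which encodes an adaptor of the actin cytoskeleton, had 11.2 and 43.4 CPM, a log2 ratio of 1.95 (1.02 to 3.05) against 0.21. Of these 24 genes Cotl1 and Pstpip2 had the widest gap to the other nuclei, and the WT level rested on 9 and 10 UMIs. Dnajc19, of mitochondrial protein import, stood at 2.01 and 1.21, Lrrc4, of synaptic adhesion, at 2.44 and 1.64, and Tff3, a goblet cell peptide, at 1.93 and 1.26. Tff3 had 10.1 and 38.4 CPM in members and 11.8 and 41.8 CPM in mesenchymal nuclei.

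The lowest genes had better known names. Zbtb16, a zinc finger transcription factor, had 112 CPM (91.3 to 136) in WT and 22.6 (17.4 to 28.9) in HIF-1α KO members, a log2 ratio of -2.31 (-2.79 to -1.84), and -2.44 in other nuclei. Flna, the actin crosslinker filamin A, stood at -2.30 (-2.88 to -1.74) and -1.52. Car12, a membrane carbonic anhydrase, had 92.0 and 28.3 CPM, a log2 ratio of -1.70 (-2.16 to -1.24), and -1.06 in other nuclei. Etv4, an ETS factor and also one of the genes highest in members, had 125 and 47.0 CPM, a log2 ratio of -1.41, and -1.28 in other nuclei. Tln2, talin 2, stood at -1.39 and -1.24. The other low genes Gm19951, Neurl4, D5Ertd579e, Ccnf and Gm49980 lay at -1.64 to -1.43 in members and at -1.87 to -1.31 in other nuclei. The muscle kinase gene Prkg1, at -1.58 and -1.39, and Rbms3, at -1.53 and -1.004, are, like Flna, also genes of mesenchymal nuclei, where Prkg1 had 1417 and 1884 CPM, Rbms3 1014 and 1361 and Flna 782 and 848. These nuclei numbered 457 in WT and 150 in HIF-1α KO, and their part in these values was not tested.

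**Figure D4:**
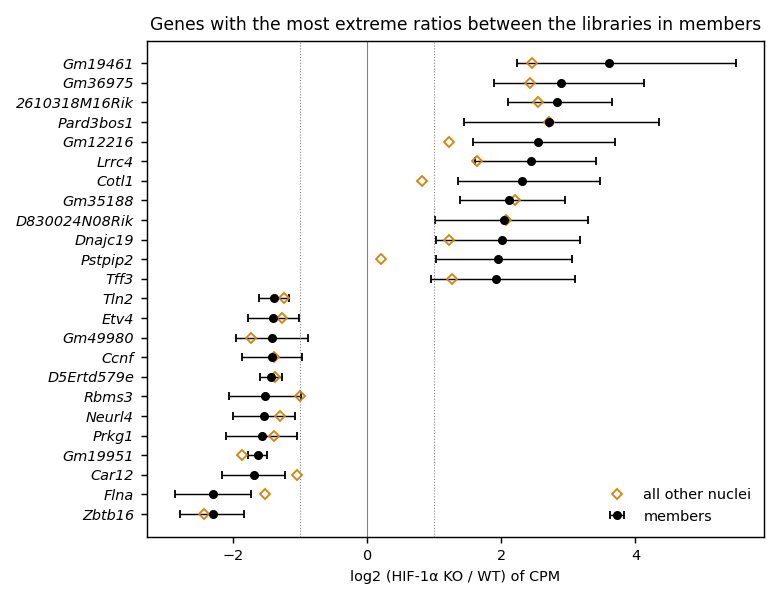
Log2 ratio of HIF-1α KO over WT (horizontal axis) for the 12 highest and 12 lowest genes with at least 100 UMIs in members. Black points are members with exact 95% intervals for counting error, open diamonds all other nuclei, and dotted lines mark 2-fold; Cotl1 (2.31 against 0.82) and Pstpip2 (1.95 against 0.21) have the widest gaps.

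Of 9 chloride secretion genes 8 lay within 2-fold between the libraries. Slc12a2 had a log2 ratio of 0.03 (-0.11 to 0.17) in members and -0.20 in other nuclei, and Kcne3 0.12 (-0.25 to 0.50) and -0.12. Adcy6 stood at -0.04 (-0.21 to 0.14) and -0.12, and Vipr1 at 0.00 (-0.26 to 0.26) and 0.11. Kcnq1 stood at 0.42 (0.27 to 0.58) in members and -0.26 in other nuclei, and Kcnn4 at 0.68 (0.27 to 1.11) and -0.14. Slc4a7, a sodium bicarbonate cotransporter gene, stood at -0.46 (-0.60 to -0.32) and 0.12. Ano1 was the 1 gene past 2-fold, at 1.10 (0.79 to 1.42) in members and 1.16 in other nuclei. Cftr itself, which belongs to the rule, stood at -0.57 (-0.66 to -0.49) and -0.60. Of 19 genes of Gs and cAMP signalling only the phosphodiesterase gene Pde10a passed 2-fold, at -2.46 (-3.31 to -1.65) on 37 and 21 UMIs and -1.84 in other nuclei, and mesenchymal nuclei had 1037 and 663 CPM of it against 41.5 and 7.53 in members.

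Lists of surface and mucus genes had medians above that of all genes. Of 14 genes of absorptive maturation Clca4a at 1.08, Car4 at 1.04 and Aqp8 at 1.72 were higher, with 1.32, 0.78 and 1.15 in other nuclei, and 0 lower, at a median of 0.59, and the same list had a median of 0.76 in other nuclei. All 10 apical scaffold genes had ratios above 0, also when centred on the median gene, with a median of 0.53 and 0.57 in other nuclei, and the actin bundler Espn alone passed 2-fold, at 1.14 (0.06 to 2.42) and 0.63 in other nuclei. All 13 mucus genes had ratios above 0, at a median of 0.47, but 1 of them, Galnt12 at 0.07, fell below 0 when centred on the median gene, and Tff3 alone passed 2-fold. The goblet markers summed to 1239 CPM in WT and 1666 in HIF-1α KO members, and to 3577 and 4517 in other nuclei. The surface absorptive markers summed to 336 and 579 CPM in members, and to 1205 and 2119 in other nuclei. The part of RNA from such cells in these values was not tested.

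All 17 cycling genes had ratios at or below 0 in members, from -0.92 to 0.00, all of them below the median gene, with a median of -0.42 and 0 past 2-fold, against a median of -0.84 in other nuclei. Ccnd2, a cyclin of cycle entry, had 217 and 114 CPM, at -0.92 (-1.18 to -0.65) and -0.72 in other nuclei, and Top2a stood at -0.20 (-0.44 to 0.04) and -0.96. Of 5 Notch and fate genes Notch1, Notch2, Jag1 and Hes1 lay at -0.83 to -0.30, and at -0.94 to -0.51 in other nuclei, and Spdef was higher at 1.10 (0.43 to 1.84) against 0.60. Of 17 factors Foxa3 was higher at 1.34 (0.76 to 1.98) and Foxa2 lower at -1.14 (-1.79 to -0.49), with 0.62 and -0.86 in other nuclei. Foxa3 and Spdef are goblet factors, and goblet nuclei had 231 and 309.6 CPM of Foxa3 against 30.3 and 76.8 in members.

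Of 12 hypoxia genes Epas1, the gene of HIF-2α, was higher at 1.02 (0.52 to 1.55) and 0.69 in other nuclei, and Hif1a had 116 and 143 CPM, at 0.31 (-0.01 to 0.64) and 0.23. The deletion is not designed to act in these nuclei. Of 10 inflammation genes Nos2 was higher at 1.49 (0.78 to 2.28), and 1.77 in other nuclei, while Nfkbia stood at -0.73 (-1.15 to -0.29) and -0.14. Nlrc5, the transactivator of MHC class I, had 2 and 52 UMIs, at 3.06 (1.13 to 6.14), and 0.83 in other nuclei. The immediate-early genes Egr1, with 5 and 71 UMIs, and Jun stood at 2.18 (0.89 to 3.85) and 1.07 (0.14 to 2.13), with 0.90 and 1.38 in other nuclei, and the other 7 within 2-fold. Cldn3, of tight junctions, was the 1 gene of 15 of epithelial structure past 2-fold, at 1.18 (0.26 to 2.24) in members and 1.18 in other nuclei. Of 11 BMP receivers and targets and 13 integrins and matrix receptors 0 passed 2-fold, with medians of -0.19 and 0.28. Slc6a4 stood at 1.10 (-0.05 to 2.49), an interval that includes 0, and at 1.06 in other nuclei. The 4 Y-linked genes tested lay within 2-fold between the libraries and over other nuclei.

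**Figure D5:**
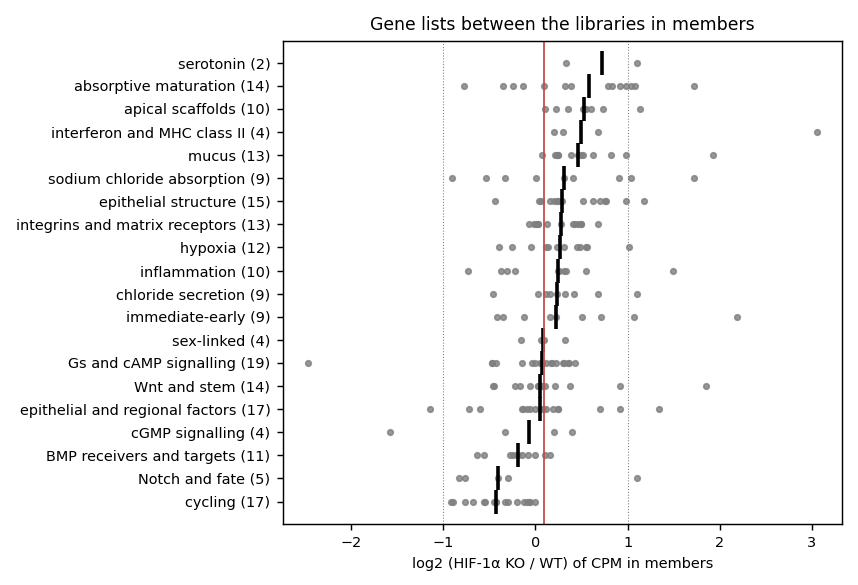
Log2 ratio of HIF-1α KO over WT in members (horizontal axis) for the tested genes of 20 lists, with the number of genes in brackets. Grey points are genes, black bars list medians, the red line the median of all genes (0.09) and dotted lines 2-fold; cycling genes lie at or below 0 and left of the red line, apical scaffold genes right of it, and mucus genes above 0, with Galnt12 (0.07) left of the red line.

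The Wnt and stem list had a median log2 ratio of 0.05 in members and -0.40 in other nuclei. In members 9 of its 14 genes lay above 0, and 5 when centred on the median gene. Lgr5 and Smoc2 were among the genes with ratios of opposite sign in members and other nuclei. Lgr5 stood at 1.85 (0.74 to 3.21) in members, on 7 and 79 UMIs, and at -0.40 in other nuclei. Smoc2, a second crypt base gene, had 75.2 CPM (58.3 to 95.5) in WT and 142 (128 to 157) in HIF-1α KO members, a log2 ratio of 0.92 (0.54 to 1.31) against -0.38 in other nuclei. At 1000 UMIs per nucleus Smoc2 was detected in 4.40% (2.29 to 7.55) of WT and 11.0% (8.69 to 13.8) of HIF-1α KO members, and in 2.75% (1.55 to 4.49) and 1.20% (0.58 to 2.20) of surface absorptive nuclei, which should lack it. The WT intervals overlap. Lgr5 was detected in 1.47% (0.40 to 3.71) and 1.92% (1.00 to 3.33) of thinned members, which is too few to read a difference from. Among other genes of the list, Lrig1 stood at -0.22 in members and -0.67 in other nuclei, Ephb2 at -0.45 and -0.62, and Axin2 at -0.46 (-1.21 to 0.33) and -0.99.

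Lgr5 and Smoc2 sat in a subset of members. A rule of 3 of 8 stem markers and at least 0.1% of UMIs was met by 20 WT (7.33%) and 81 HIF-1α KO members (12.9%). Among those that met it, Smoc2 had 430 CPM (306 to 588) in WT and 538 (471 to 613) in HIF-1α KO, and among the others 35.0 (23.2 to 50.6) and 71.8 (61.4 to 83.4). Lgr5 had 33.1 (6.83 to 96.7) and 148 CPM (113 to 189) in the former, and 5.00 and 7.18 in the latter. The rule uses these genes, so the split itself is no finding. The secretion genes were not part of it: Slc12a2 had 949 (759 to 1172) and 946 CPM (855 to 1044) in members that met the stem rule, against 556 and 549 in the others. Kcnq1 had 1004 (808 to 1233) and 1258 CPM (1153 to 1369.9), against 426 and 542. Within the members these secretion genes were therefore highest where stem genes were found, in both libraries, while Cftr was not, with 1677 and 1165 CPM against 1853 and 1246.

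Markers of other cells were counted in the members because nuclei can carry free RNA or be joined with another nucleus, and no doublet caller was used. Of WT members 93.0%, and of HIF-1α KO members 98.7%, held at least 3 of 10 epithelial markers, against 81.1% and 95.7% of all other nuclei. At 1000 UMIs the shares were 50.9% and 66.2% of members and 51.3% and 66.1% of the others, so this count does not set the members apart. The absorptive exchanger genes were at the mesenchymal level. Slc9a3 was also low in stem, cycling and goblet nuclei. These measurements therefore cannot decide on the label of a crypt enterocyte. At least 3 goblet markers were found in 34.4% and 81.5%, but in 43.2% and 86.8% of all other nuclei, and in 6.96% and 17.0% of members at 1000 UMIs. A rule with a least share of UMIs was met by 4 and 16 members for goblet markers, by 5 and 77 for surface absorptive and by 9 and 4 for mesenchymal markers. Immune markers reached 3 genes in 0 and 1 member and endothelial markers in 1 and 1, and Sox10, of enteric glia, was at 0 in both libraries. Of 9586 barcodes kept, 3 sequences occurred in both libraries and none of them was a member.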

How the data were processed

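For each library the authors deposited raw counts of UMIs per gene and nucleus, without normalization, from the default cell calling of Cell Ranger 7.0.1 on mm10 (GRCm38), as their processing notes and methods state. Whether introns were counted is not stated in the sources used here. Nuclei with 400 to 5000 detected genes and at most 10% mitochondrial UMIs were kept, which left 13259430 of 13492810 UMIs in WT and 23605502 of 25489277 in HIF-1α KO. The members held 891123 and 2787414 UMIs. The upper gene limit was the only step against doublets.

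UMIs were summed over nuclei and divided by the summed total (CPM). Sums have exact Poisson, shares exact Clopper-Pearson and ratios exact conditional binomial 95% intervals. All cover counting error only. In the point value of a ratio, a gene without a UMI was set to a floor of 3 UMIs. Genes with at least 50 UMIs in members were compared and called at 2-fold. Comparison classes met exactly 1 marker rule and were not members. The named genes were the rule genes, the 15 highest and 5 lowest over other nuclei by the smaller ratio of both libraries, the 12 highest and 12 lowest between libraries with at least 100 UMIs, and the genes of 20 lists. Members and lists were chosen with earlier results of these data known. Gene positions came from GENCODE M21, which held 99.8% of the gene identifiers. The calculations used Python 3.11.15, numpy 2.4.6, scipy 1.17.1 and pandas 2.3.3, and the ratio step was checked on simulated counts. The thinning started from seed 1. Other depths, weights, scalings, filters and member rules were tried.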

Additional observations from a re-analysis of the deposited data

Results flagged for a closer look

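The filter on nuclei left out 70 barcodes of the HIF-1α KO library, and 7 of these met the rule on markers and exclusion genes. They were flagged because they lie outside the nuclei that the comparisons used. With all barcodes kept, the log2 ratio of the shares was 1.25 and thus equal to the value with the filter.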

How the results depend on the processing

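The share of members was larger in HIF-1α KO under all 14 other settings. Its log2 ratio, 1.25 under the rule, was 1.86 with nuclei thinned to 1000 UMIs, 0.70 with at least 3 markers, 1.94 with at least 5, 0.44 with no least number of markers and 0.42 among nuclei with 4000 to 8000 UMIs. Genes past 2-fold between the libraries, 377 higher and 127 lower, numbered 138 and 37 after thinning to 1000 UMIs, where 3864 genes were tested, and 1202 and 4449 with no filter on low counts, where 18214 genes with at least 1 UMI entered. Without members with 3 markers of another list they numbered 67 and 37, on 111 WT and 57 HIF-1α KO members with 2142 genes tested, and 10 of the 17 lists that kept a tested gene had a median above 0, against 16 of 20. With at least 5 markers the split was 450 and 92. Genes past 2-fold over other nuclei, 114 higher and 265 lower, numbered 27 and 59 after thinning, 1814 and 1274 with no filter, and 210 were higher when other epithelial nuclei were the comparison. Fewer genes tested after thinning or without those members lowers these counts by construction. With no filter, genes without a UMI in WT members were set to 3 UMIs and counted as lower where HIF-1α KO members held few. The split of 1202 and 4449 therefore gives no direction. The cause of the other changes was not tested. No named gene changed its direction, but calls were lost: Gm49980 went to -0.90 without members with 3 markers of another list and Rbms3 to -0.90 among members with 2000 to 6000 UMIs, and over other nuclei Cdc25c, Hmmr, Nfe2l3 and Cenpu fell under 2-fold after thinning and Nrg1 and Ctnna2 against epithelial nuclei. Of 137 list medians between the libraries 13 took the other sign, 4 of them with ratios centred on the median gene, where Gs and cAMP signalling went from 0.07 to -0.02 and Wnt and stem genes from 0.05 to -0.04. Without members with 3 markers of another list chloride secretion went from 0.23 to -0.03 and the 2 serotonin genes from 0.72 to -0.35. Of the single values, 17 of 168 gene ratios between libraries, 13 of 60 over other nuclei and 3 of 137 list medians moved by more than their counting error. Settings by denominator, by cycling members, by shared barcodes, by members with 2000 to 6000 UMIs and by the other class rules were chosen after seeing the data. No paired analysis was possible because each genotype had 1 library, and no library could be left out for the same reason. The depth of the WT members limits genes with few UMIs: at 10 UMIs or fewer the intervals span several-fold.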
